A study of Mus musculus with 40 samples.

Results

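The translation factors and aminoacyl-tRNA synthetases of mouse embryos were described here, as measured on 2-colour cDNA arrays after exposure to an alkylating drug. Members were the probes that mapped to a single gene symbol starting with Eif or Eef, or ending in ars or ars2 and naming an aminoacyl-tRNA synthetase, together with Etf1, Gspt1 and Pabpc1. This gave 76 of 6970 named genes on 160 of 15279 probes, with 82 of 7680 probes (51 genes) on array design 1 and 78 of 7599 probes (47 genes) on array design 2. Of the 76 genes, 22 had probes on both designs. The rule itself uses no measured value, and all 160 probes passed the requirement of values in at least 3 replicates. By role, initiation held 43 genes on 87 probes, elongation 8 genes on 35 probes, release 2 genes on 5 probes and tRNA charging 23 genes on 33 probes. Another 1 probe on array design 1 and 3 probes on array design 2 mapped to a member together with other genes and were left out. Mars1 (ending in ars1) and Eprs (ending in prs) are synthetase genes whose symbols fall outside the rule, and their values are given at the end of the synthetase results.

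Mouse embryos in culture (37 °C) received 40 µM 4-hydroperoxycyclophosphamide for 5 h, and control embryos went without the drug. The compound is a pre-activated form of cyclophosphamide, an anticancer drug that alkylates DNA. On each of 40 arrays, total RNA from treated embryos competed with total RNA from control embryos, and each array design had 5 replicates, hybridised once per dye orientation with every slide read out 2 times. The sources used here do not give the mouse strain, the embryonic stage or how many embryos make up a replicate. All values below are log2 ratios of treated over control embryos after each array was centred on its median probe, with 1 value per replicate in which both dye orientations weigh equally. Before centring, the median over all probes of a replicate lay between −0.66 and −0.12, so every value is relative to that shift.

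The direction is likely and not settled by the files. It rests on the channels named in the labels and on Ccng1, a p53 target expected to rise after DNA damage, which was positive in every replicate and both orientations (lowest value 0.62). Slides of the same orientation correlated as low as −0.35 over all probes on array design 2. With the sign turned, every rise below is a fall and the counts of higher and lower probes change places. Replicates are separate by their labels alone, so p-values measure a spread that may be technical. The number of arrays limits the precision. In whole embryos, fewer cells of a type and less RNA per cell cannot be told apart. A ratio carries no level, so whether a marker of a tissue is present could not be read.

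Protein synthesis starts when initiation factors bring the small ribosomal subunit, the initiator tRNA and the capped mRNA together. Elongation factors then deliver each charged tRNA and move the ribosome along, release factors end the chain at a stop codon, and aminoacyl-tRNA synthetases load each tRNA with its amino acid. Messengers of elongation factors, of the poly(A)-binding protein and of several initiation factors carry a terminal oligopyrimidine tract and are translated under the control of mTOR. Under stress, kinases that phosphorylate eIF2 slow initiation and raise translation of the transcription factor ATF4, whose targets include cytosolic synthetases.

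Relative to the median probe, the elongation factors Eef1a1 and Eef1b2 were higher in treated embryos on both array designs, Eef2 and Eef1g were higher on array design 2, and several initiation factors were higher on one design, whereas without centring most of these ratios were negative. With a dye-related trend removed, none of the 19 and 32 higher probes counted next passed. Among the members then lower were the release factors Gspt1 and Etf1 and the synthetases Aars and Tars. With arrays centred and the trend kept, synthetases and release factors stayed near the median probe, apart from 1 lower synthetase probe on each design. On array design 1, 19 of the 82 member probes (23.2%) were higher and 1 was lower, or 1 higher and 19 lower with the sign turned, where 10.2% of all probes were called higher and 5.77% lower (limma, Benjamini-Hochberg adjusted p under 0.05 over all probes). Of the 78 member probes on array design 2, 32 (41%) were higher and 2 lower, or 2 higher and 32 lower with the sign turned, where 19.8% of all probes were called higher and 8.07% lower. By role, 7 of 12 elongation probes were higher on array design 1 and 21 of 23 on array design 2. Among initiation probes, 12 of 47 were higher on array design 1, while 11 of 40 were higher and 1 was lower on array design 2. No tRNA charging probe was higher (1 and 1 at an unadjusted p under 0.05 on designs 1 and 2), and 1 probe was lower out of 21 on array design 1 and out of 12 on array design 2. None of the 2 release probes on array design 1 and 3 on array design 2 passed, nor had any an unadjusted p under 0.05.

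Many of these probes share a target, since 17 of the elongation probes belong to Eef1a1 alone. With the probes of a gene averaged and all genes tested (each unnamed probe as a gene of its own), 10 of 51 member genes were higher and 1 lower on array design 1, against 9.56% and 7.17% of all genes. For array design 2 the counts were 10 of 47 higher and 2 lower, against 18.1% and 7.66% of all genes. The share of higher member genes on array design 2 was thus near that of all genes.

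The median log2 ratio of the elongation probes was 0.31 on array design 1 and 0.30 on array design 2, against −0.0024 and 0.017 for all probes. Eef1a1 gave 6 of the 12 elongation probes on array design 1 and 11 of the 23 on array design 2, so these medians lean on that gene. As gene means, Eef1a1 and Eef1b2 passed on array design 1, but Eef1d, Eef1g, Eef2k and Eef2kmt did not. Eef1a1, Eef1b2, Eef1g and Eef2 passed on array design 2, but Eef1e1 and Eef2k did not. Initiation probes had medians of 0.15 and 0.088, release probes −0.0083 and 0.061, and tRNA charging probes 0.024 and 0.028. The replicates were further apart on array design 1. There the elongation median was 0.18, 0.20, 0.044, 0.47 and 0.61 in replicates 1 to 5, while on array design 2 it was 0.34, 0.24, 0.36, 0.32 and 0.29. Replicates 4 and 5 of array design 1 were the highest and replicate 3 the lowest. Replicates 4 and 5 also had the widest spread over all probes of that design (SD 0.23 and 0.28, against 0.15 to 0.19 in the others), and the part of this spread in the result was not tested.

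The calls on array design 1 depended on replicate 4. One of its readouts lacked 786 of 7680 values (10.2%) and was left out. With that readout kept, none of the 20 called probes passed (limma adjusted p = 0.0516 to 0.186), 30 members still had an unadjusted p under 0.05, and 0.638% of all probes were called higher and 0.013% lower. The ratio itself was the same in 14 of these 20 probes. Of the 11 member genes called as gene means, 7 still passed with that readout kept, Eef1a1, Eef1b2, Pabpc1 and Ears2 among them (limma adjusted p = 0.0459 to 0.0466). Without replicate 4, no member was called as a probe or as a gene mean, with 23 probes at an unadjusted p under 0.05. Leaving out replicate 3 instead gave 29 higher members. By contrast, 27 of the 34 called probes on array design 2 kept their call whichever replicate was left out.

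Eef1a1 encodes eEF1A1, the GTPase that brings charged tRNAs to the ribosome, and was the member with the most probes. The mean over its 6 probes on array design 1 was 0.20, 0.27, 0.059, 0.55 and 0.67 in replicates 1 to 5. The mean over its 11 probes on array design 2 was 0.35, 0.29, 0.34, 0.33 and 0.31. All 10 values were above 0, spread widely on array design 1 and close together on array design 2. The gene means were 0.35 ± 0.25 on array design 1 (SD over 5 replicates, limma adjusted p = 0.0156) and 0.32 ± 0.026 on array design 2 (likewise, limma adjusted p = 7.7e-05). Each single probe passed, with 0.31 to 0.38 on array design 1 and 0.23 to 0.38 on array design 2, or 1.24- to 1.30-fold and 1.18- to 1.30-fold. The probes are cDNAs, so related sequences such as the Eef1a2 transcript and processed copies may hybridise with them, and the 17 probes are not independent measurements.

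The eEF1B complex reloads eEF1A with GTP, and its exchange subunit Eef1b2 was called on both designs. Eef1b2 had 0.27, 0.20, 0.046, 0.38 and 0.62 in the replicates of array design 1 (mean 0.31 ± 0.22 SD over 5 replicates, limma adjusted p = 0.018). Its probe on array design 2 had 0.50, 0.39, 0.40, 0.34 and 0.42 (mean 0.41 ± 0.057 SD over 5 replicates, limma adjusted p = 5.88e-06). All replicates were positive, and its value on array design 2, 1.33-fold, was the highest of the members there. The structural subunit Eef1g was higher on each of its 5 probes on array design 2, from 0.20 to 0.29, with gene means of 0.35, 0.14, 0.15, 0.24 and 0.28 in the replicates (0.23 ± 0.086). Its 2 probes on array design 1 disagreed and neither passed. One had 0.21, 0.13, −0.12, 0.49 and 0.69 (mean 0.28, limma adjusted p = 0.0518) and the other −0.080, −0.16, −0.080, −0.17 and −0.21 (mean −0.14, limma adjusted p = 0.094). The first of these was below 0 in replicate 3 alone, and the other in every replicate. Eef1d, the second exchange subunit, was measured on array design 1 at 0.20 ± 0.18 and did not pass (limma adjusted p = 0.0574).

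Eef2, the translocase that moves the ribosome to the next codon, was measured on array design 2 alone. The mean of its 4 probes was 0.28, 0.34, 0.40, 0.38 and 0.25 in the replicates, 0.33 ± 0.063 in all (SD, n = 5, limma adjusted p = 8.48e-05), and each probe passed, from 0.29 to 0.36. The replicates lay close together and far from 0. Eef2k, the kinase that switches eEF2 off, did not pass on either design. It had −0.20, 0.20, 0.14, 0.10 and −0.028 on array design 1 (0.043 ± 0.16) and −0.26, −0.12, −0.066, −0.054 and −0.072 on array design 2 (−0.12 ± 0.087, limma adjusted p = 0.104). The signs were mixed on array design 1 and all negative on array design 2. Eef2kmt, a methyltransferase that acts on eEF2, had 0.14 ± 0.17 on array design 1. Eef1e1, which despite its symbol encodes a protein of the multi-synthetase complex, had 0.059 ± 0.052 on array design 2. Neither passed.

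**Figure D1:**
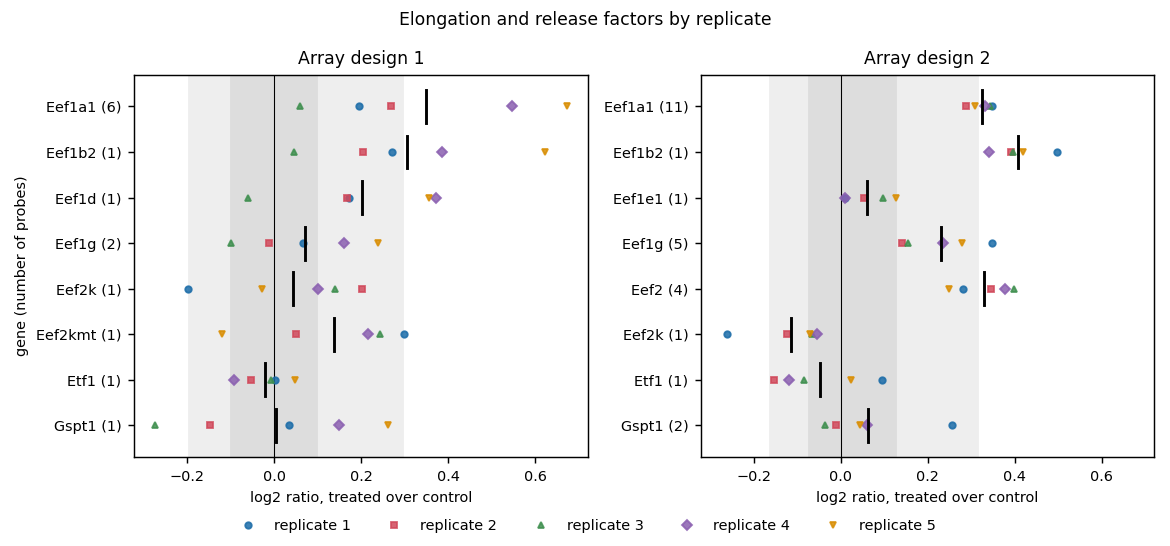
Elongation factors (Eef genes) and the release factors Etf1 and Gspt1: log2 ratio of treated over control embryos (x axis) for each gene (y axis, number of probes in brackets), with 1 point per replicate and a black bar at the mean. Dark and light grey bands hold the middle 50% and 90% of all probes of the design. Eef1a1, Eef1b2 and Eef2 sit at means of 0.31 to 0.41 with arrays centred (−0.11 to 0.036 without centring), and the points spread more widely on array design 1 than on array design 2.

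Release factors did not pass on either design. Etf1, which encodes eRF1, the factor that reads the stop codon, had replicate values of 0.00097, −0.053, −0.0064, −0.094 and 0.047 with array design 1 and 0.095, −0.15, −0.085, −0.12 and 0.023 with array design 2. Gspt1, the GTPase partner eRF3a, had 0.035, −0.15, −0.27, 0.15 and 0.26 on array design 1 and 0.26, −0.011, −0.036, 0.061 and 0.045 as the mean of its 2 probes on array design 2. The replicates lay on both sides of 0 in all these sets. The means were −0.021 ± 0.054 and −0.048 ± 0.10 for Etf1, and 0.0044 ± 0.22 and 0.063 ± 0.12 for Gspt1 (SD, n = 5, designs 1 and 2, lowest limma adjusted p = 0.408).

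In initiation, the poly(A)-binding protein Pabpc1, which binds mRNA tails and contacts eIF4G, gave opposite signs on the designs. Its 3 probes on array design 1 were all called, each at 0.37, with a gene mean of 0.27, 0.28, 0.16, 0.49 and 0.66 in the replicates (mean 0.37 ± 0.20 SD over 5 replicates, limma adjusted p = 0.00682). Its probe on array design 2 had −0.26, −0.015, −0.050, −0.088 and −0.035 (mean −0.089 ± 0.097 SD over 5 replicates, limma adjusted p = 0.221). Every replicate was above 0 on array design 1 and below 0 on array design 2. The designs hold different cDNAs of the gene, and which one reports the transcript was not tested. Its gene means were 0.0088 and 0.0065 on designs 1 and 2 with the dye trend described further on removed, and neither passed.

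The eIF3 complex is the scaffold that holds the small subunit and the mRNA. Of its probes, 6 of 15 were called higher on array design 1 and 3 of 8 on array design 2, against 10.2% and 19.8% of all probes. As gene means, Eif3e, Eif3i, Eif3j1, Eif3k and Eif3l passed on array design 1 and Eif3h alone on array design 2. Eif3e had 0.26, 0.20, 0.053, 0.41 and 0.55 on array design 1 (mean 0.30 ± 0.19 SD over 5 replicates, limma adjusted p = 0.017), the highest of the complex. Eif3k had 0.22, 0.11, 0.10, 0.42 and 0.47 (0.27 ± 0.17), and Eif3l had 0.27, 0.095, 0.0077, 0.40 and 0.47 (0.25 ± 0.20). Replicates 4 and 5 were the highest in all 3 genes. Both Eif3i probes were called, with 0.14, 0.18, 0.00015, 0.35 and 0.34 on one and 0.077, 0.28, 0.021, 0.40 and 0.38 on the other (means 0.20 and 0.23). Of the 2 probes of Eif3j1, a loosely bound subunit, one was called at 0.38, 0.044, 0.25, 0.38 and 0.16 (mean 0.24), and the other had a mean of 0.14. These subunits shared a positive sign, yet the largest, Eif3a, did not pass on any of its 6 probes (0.097 to 0.17). Eif3a had gene means of 0.15, 0.043, −0.11, 0.26 and 0.34 on array design 1 and 0.26, 0.016, −0.020, 0.11 and 0.068 over its 2 probes on array design 2.

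Both Eif3h probes of array design 2 passed, with 0.20, 0.067, 0.30, 0.21 and 0.25 and 0.26, 0.16, 0.30, 0.26 and 0.20 (means 0.20 and 0.24). The 2 probes of Eif3m disagreed. One was called at 0.26, 0.029, 0.15, 0.21 and 0.27 (mean 0.18, limma adjusted p = 0.0167), and the other had 0.0031, −0.22, −0.14, −0.15 and −0.075 (mean −0.12, limma adjusted p = 0.104). Eif3b, which contacts the small subunit, had 0.072, 0.16, −0.22, 0.39 and 0.028 on array design 1 and 0.36, 0.087, 0.0094, 0.12 and 0.036 on array design 2, and passed on neither. Eif3d and Eif3f did not pass, at 0.028 ± 0.098 and 0.10 ± 0.10.

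The eIF4 group binds and unwinds the capped end of the mRNA. Eif4e, the cap-binding protein, did not pass on any of its probes, with −0.22, −0.050, −0.20, −0.0082 and 0.24 on array design 1 and gene means of 0.19, −0.098, −0.080, −0.0031 and 0.039 over 3 probes of array design 2. Its replicates lay on both sides of 0. The helicase genes were measured on different designs, so gene and design cannot be told apart. Eif4a1 had 0.12 ± 0.28 on array design 1 and was not called. Eif4a2 was called on array design 2 at 0.13, 0.37, 0.31, 0.13 and 0.16 (mean 0.22 ± 0.11 SD over 5 replicates, limma adjusted p = 0.00527). Eif4b, a helper of the helicase, had gene means of 0.034, 0.11, −0.070, 0.47 and 0.49 on array design 1 and 0.19, 0.10, 0.087, 0.092 and 0.15 on array design 2, where 1 of its 2 probes was called at 0.21 ± 0.039. Eif4h, a relative of it, had 0.19, 0.0023, −0.097, 0.31 and −0.19 on array design 1 and 0.33, 0.046, 0.22, 0.29 and 0.030 on array design 2, where it was called (0.18 ± 0.14).

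Eif4g2 encodes a scaffold that works without cap-binding eIF4E. Of its 3 probes on array design 2, 2 were called, at 0.28 ± 0.067 and 0.22 ± 0.14, with gene means of 0.36, 0.11, 0.16, 0.17 and 0.26. Neither of its 2 probes on array design 1 passed, with gene means of 0.14, 0.071, −0.13, 0.34 and 0.59. The values were positive in all replicates but replicate 3 of array design 1. Eif4e3, an atypical cap-binding protein, was the initiation factor called lower, with −0.23, −0.21, −0.28, −0.063 and −0.035 on array design 2 (mean −0.17 ± 0.11 SD over 5 replicates, limma adjusted p = 0.0302). The call of Eif4e3 was lost without replicate 1, 2 or 3. Eif4e2, a relative of Eif4e3, had 0.14 ± 0.17 and Eif4g3 had 0.055 ± 0.14, and neither passed.

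Eif4enif1, which carries eIF4E into the nucleus, had the largest log2 ratio of any member and the least even one. Its called probe on array design 1 had 0.031, −0.17, 0.23, 1.93 and 1.87 (mean 0.78 ± 1.03 SD over 5 replicates, limma adjusted p = 0.0481). Replicates 4 and 5 stood far above the others. The other probe of the gene there had 0.035, −0.23, −0.18, 0.17 and −0.44, and the probe on array design 2 had 0.17, 0.22, 0.10, 0.0038 and −0.16, with mixed signs on both.

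Among the factors of scanning and subunit joining, Eif1b, a close relative of the start-codon selection factor eIF1, had 0.26, 0.10, 0.35, 0.58 and 0.45 on array design 1 (mean 0.35 ± 0.18 SD over 5 replicates, limma adjusted p = 0.0073). Eif5b, the GTPase that joins the subunits, had 0.22, 0.0085, 0.099, 0.29 and 0.22 on array design 1, not called, and gene means of 0.38, 0.21, 0.10, 0.18 and 0.020 on array design 2, where 1 of 2 probes passed at 0.22 ± 0.094. One of 2 Eif1ax probes passed there at 0.40, 0.13, 0.11, 0.18 and 0.23 (mean 0.21). All the called probes of this set were positive in every replicate. Eif1a, which also takes part in scanning, had gene means of −0.014, 0.028, 0.062, −0.0095 and 0.11 over its 3 probes on array design 1, which lay from −0.035 to 0.16, and 0.40, 0.070, −0.011, 0.10 and 0.18 on array design 2. Eif2d, which can deliver tRNA to the ribosome without eIF2, had −0.0088, 0.034, 0.20, 0.20 and −0.10 and 0.18, −0.036, 0.11, 0.093 and 0.14 on designs 1 and 2. Eif5, which makes eIF2 hydrolyse GTP, had 0.19 ± 0.25 over 3 probes of array design 1. Eif1a, Eif2d and Eif5 did not pass.

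The eIF2 group carries the initiator tRNA, and eIF2B is its exchange factor. None of their 9 probes passed on array design 1 (0 at an unadjusted p under 0.05), where 10.2% of all probes were called higher. On array design 2, 1 of 4 was higher, against 19.8% of all probes, and both sets are too small to compare. That probe, for the exchange subunit Eif2b2, had 0.46, 0.58, 0.16, −0.028 and 0.037 (mean 0.24 ± 0.27 SD over 5 replicates, limma adjusted p = 0.0176), with replicates 1 and 2 well above the other 3. Eif2s2, the beta subunit of eIF2, had gene means of 0.069, −0.054, −0.036, 0.094 and 0.14 over 3 probes on array design 1 (−0.017 to 0.078) and 0.27, −0.12, 0.089, 0.044 and −0.038 on array design 2. Its signs were mixed. Eif2s3x and Eif2s3y, the gamma subunits of the X and Y chromosome, had 0.11 ± 0.11 and −0.049 ± 0.16 and did not pass. Eif2a, a factor distinct from the alpha subunit of eIF2, was called on array design 1 with 0.087, 0.13, 0.28, 0.21 and 0.24 (mean 0.19 ± 0.078 SD over 5 replicates, limma adjusted p = 0.0408), and the call was lost without any 1 of the 5 replicates. Of the kinases that act on eIF2, Eif2ak1 had 0.13, −0.13, −0.041, 0.00060 and 0.15 and Eif2ak4, the sensor of uncharged tRNA, 0.12, −0.17, −0.053, −0.045 and 0.10 on array design 2. Their means, 0.023 ± 0.12 and −0.011 ± 0.12, were smaller than the SD. Eif5a, which helps the ribosome at difficult peptide bonds, had 0.33, 0.092, −0.013, 0.072 and 0.16 (0.13 ± 0.13) on array design 2, and Eif6, which keeps the large subunit apart, −0.022 ± 0.12. Neither passed. Eif2s1, Eif4g1 and Eif4ebp1 were not analysed here.

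**Figure D2:**
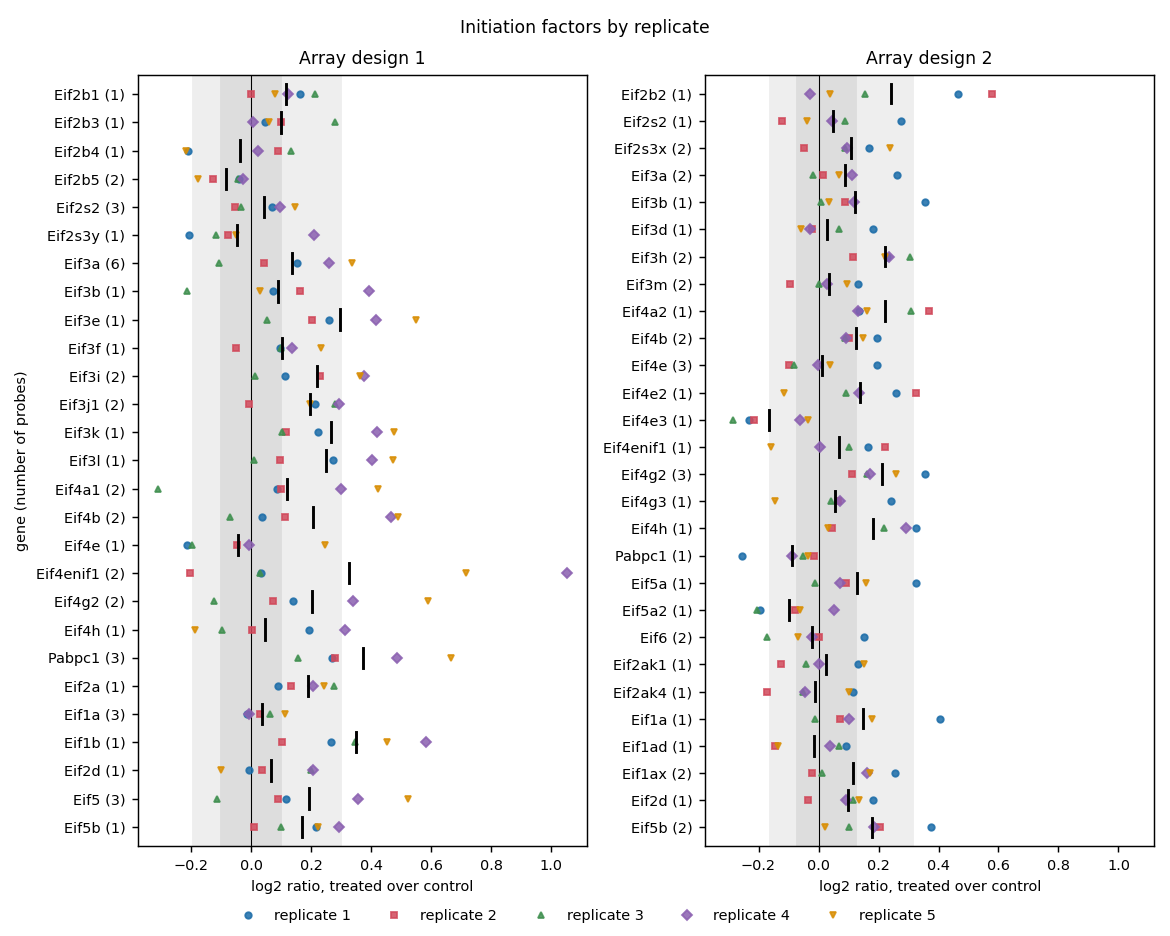
Initiation factors, ordered by complex: log2 ratio of treated over control embryos (x axis) for each gene (y axis, number of probes in brackets), with 1 point per replicate and a black bar at the mean. Grey bands hold the middle 50% and 90% of all probes. On array design 1 the highest replicate is replicate 5 in 13 and replicate 4 in 10 of 27 genes, and on array design 2 replicate 1 is the highest in 18 of 28.

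Replicates also ranked alike within a design across initiation genes. On array design 1 replicate 5 was the highest in 13 of 27 genes and replicate 4 in 10, and on array design 2 replicate 1 was the highest in 18 of 28. The median over all probes of replicate 1 on array design 2 was 0.11 after averaging of the orientations, against −0.013 to 0.021 in the other replicates. The part of this in the single genes was not tested.

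No synthetase was called higher on either design. Cytosolic synthetases had 16 probes of 11 genes on array design 1 with a median of 0.027 and none called, and 6 probes of 6 genes on array design 2 with a median of 0.0032 and 1 called lower. Mitochondrial synthetases had medians of −0.12 over 5 probes and 0.031 over 6 probes, with 1 of 5 called lower on array design 1. The called genes were Lars, the cytosolic leucyl-tRNA synthetase that also serves as a leucine sensor for mTOR, and Ears2, the mitochondrial glutamyl-tRNA synthetase.

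Lars had −0.29, −0.18, −0.33, −0.045 and −0.18 on array design 2 (mean −0.20 ± 0.11 SD over 5 replicates, limma adjusted p = 0.00961) and 0.056, −0.16, −0.28, 0.15 and −0.26 on array design 1 (mean −0.097 ± 0.19 SD over 5 replicates, limma adjusted p = 0.342). All replicates were below 0 on array design 2, where the call was lost without replicate 1 or 3, and the signs were mixed on array design 1. Ears2 had −0.12, −0.24, −0.28, −0.035 and −0.26 on array design 1 (mean −0.19 ± 0.10 SD over 5 replicates, limma adjusted p = 0.0471). All of its replicates were below 0, and the call was lost without any 1 of the 5. Cars, the cysteinyl-tRNA synthetase, was also negative throughout on array design 1, with −0.12, −0.16, −0.15, −0.089 and −0.32 (−0.17 ± 0.089), and did not pass (limma adjusted p = 0.0611).

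Besides Lars, 3 synthetases had probes on both designs. Qars, for glutamine, had 0.056, −0.034, −0.076, 0.15 and 0.045 on array design 1 and 0.27, 0.089, −0.028, 0.18 and 0.097 on array design 2. Sars, for serine, had gene means of 0.14, −0.0076, −0.12, 0.31 and 0.24 over 3 probes on array design 1 and −0.069, −0.25, 0.029, −0.12 and −0.18 on array design 2. Rars2, for arginine in mitochondria, had −0.023, 0.085, 0.24, 0.17 and 0.056 and 0.069, −0.15, 0.10, 0.0014 and −0.041. Each of these sets held both signs. None of the 3 genes passed on either design. All synthetases other than Ears2 and Lars had gene means from −0.17 to 0.11 on array design 1 and from −0.12 to 0.12 on array design 2. Outside the rule, Mars1 had −0.11 ± 0.15 on array design 1. Eprs, the joint synthetase for glutamate and proline, had 0.034 ± 0.19 and −0.039 ± 0.12 on designs 1 and 2.

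**Figure D3:**
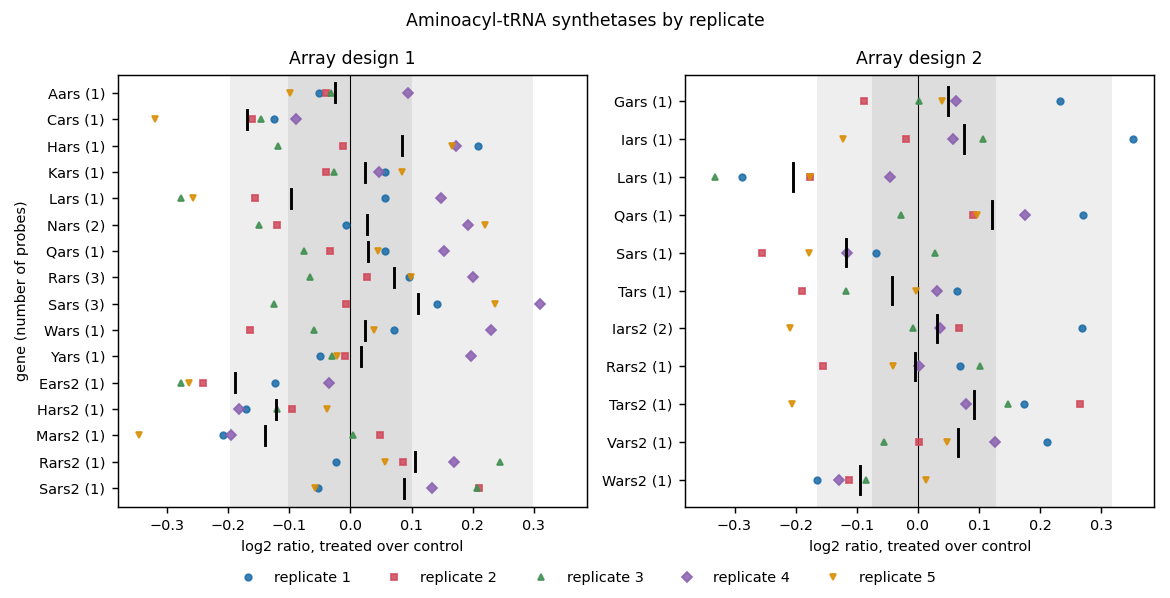
Aminoacyl-tRNA synthetases, cytosolic above and mitochondrial below: log2 ratio of treated over control embryos (x axis) for each gene (y axis, number of probes in brackets), with 1 point per replicate and a black bar at the mean. Grey bands hold the middle 50% and 90% of all probes. All replicates lie below 0 for Ears2, Cars and Hars2 on array design 1 and for Lars on array design 2.

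Cytosolic synthetase genes are textbook targets of ATF4, so their promoters were searched for the core of the element that ATF4 binds with C/EBP proteins. The letters searched were TGATGNAA, and TTNCATCA on the other strand, in the 300 bases from 250 before to 50 after each annotated start (RefSeq, GRCm38.p6). Of 32851 windows of this length in the table, 1304 (3.97%) held a match. Among the members it was found in 5 of 8 cytosolic synthetase genes that had a window and in 0 of 8 mitochondrial ones, in 1 of 34 initiation genes, 1 of 6 elongation genes and 0 of 1 release gene. The cytosolic synthetases Cars, Hars, Lars, Nars, Rars and Wars had no window and were not searched. Below are 60 bases around the match in each of the 5 genes, shown because their windows held a match, with the match in capitals.
Aars, chr8:111033802-111033861, plus strand: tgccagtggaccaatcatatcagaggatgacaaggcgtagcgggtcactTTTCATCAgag
Gars, chr6:55037945-55038004, plus strand: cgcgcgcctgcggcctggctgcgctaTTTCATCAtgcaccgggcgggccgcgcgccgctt
Iars, chr13:49682090-49682149, plus strand: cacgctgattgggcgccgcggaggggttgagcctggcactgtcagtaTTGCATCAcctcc
Tars, chr15:11399640-11399699, minus strand: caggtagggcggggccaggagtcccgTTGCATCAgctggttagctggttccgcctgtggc
Yars, chr4:129189863-129189922, plus strand: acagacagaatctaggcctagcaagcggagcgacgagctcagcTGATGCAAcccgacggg
The Aars window held 2 matches, of which 1 is shown. In Aars, Iars and Yars the match shown lies after the annotated start. A match is a description of the letters and says nothing on binding.

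None of these 5 genes was called. Aars, for alanine, had −0.051, −0.040, −0.031, 0.094 and −0.10 and Yars, for tyrosine, −0.049, −0.0087, −0.030, 0.20 and −0.022 on array design 1. Gars, for glycine, measured on array design 2 like the next 2 genes, had 0.23, −0.088, 0.0011, 0.062 and 0.039, Iars, for isoleucine, 0.35, −0.019, 0.11, 0.058 and −0.12 and Tars, for threonine, 0.064, −0.19, −0.12, 0.031 and −0.0029. Each set held both signs, and all 5 means lay between −0.043 and 0.075. Of the other genes ATF4 is known to control, none of 10 probes (8 genes) passed on array design 1, with a median of 0.034. On array design 2 none of 13 probes (9 genes) was higher and 3 were lower, against 19.8% and 8.07% of all probes, with a median of −0.046. The lower ones were Atf4 itself, at −0.42, −0.50, −0.49, −0.26 and −0.38 (mean −0.41 ± 0.099 SD over 5 replicates, limma adjusted p = 9.53e-06), and both probes of the lipoprotein receptor Vldlr (−0.14 ± 0.050 and −0.21 ± 0.10). All replicates of these 3 probes were below 0, and with the dye trend described further on removed Atf4 still passed at −0.59 (limma adjusted p = 8.6e-05). Both Vldlr probes then lost their call (0.0093 and −0.087), the amino acid transporter Slc38a2 was lower (−0.25), and so were Aars and Tars of the 5 genes above. Asns, the asparagine synthetase often used to read ATF4 activity, had 0.14 ± 0.18 and did not pass.

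Translation genes outside the rule were taken from a list of 42. On array design 1, 2 of 23 probes (17 genes) were higher and 1 lower, shares near the 10.2% and 5.77% of all probes. On array design 2, 9 of 22 probes (15 genes) were higher and none lower, against 19.8% and 8.07% of all probes. The medians of the listed probes were 0.037 and 0.11. Tpt1, a small growth-linked protein whose mRNA has a terminal oligopyrimidine tract, was higher on both probes of array design 2 (0.45 ± 0.061 and 0.46 ± 0.047), and Naca, which binds nascent chains, on all 3 (0.24 ± 0.071, 0.23 ± 0.093 and 0.25 ± 0.16). One of 3 probes of Paip2, a repressor of the poly(A)-binding protein, was higher at 0.30 ± 0.15, and Impact, an inhibitor of the kinase Eif2ak4, was higher at 0.22 ± 0.28 without one sign in all replicates. The other calls were 1 probe each of Aimp2 and Abce1. Both probes of Btf3, the partner of Naca, were higher on array design 1 (0.29 ± 0.22 and 0.32 ± 0.26). Dph5, an enzyme of the diphthamide residue of eEF2, was lower there (−0.21 ± 0.15). With the dye trend removed Tpt1 had 0.19 on one probe, which still passed (limma adjusted p = 0.0221), and 0.092 on the other (limma adjusted p = 0.138). The other 8 of the 9 calls on array design 2 and all 3 on array design 1 were then lost, while 2 of 3 Ddx3x probes (a helicase, −0.46 and −0.39) on array design 1 and Larp1 (−0.21), which binds terminal oligopyrimidine mRNAs, on array design 2 were lower.

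Among the 22 genes with probes on both designs, 15 had positive and 2 negative means on both, and 5 had opposite signs. As gene means, Eef1a1 and Eef1b2 passed on both, Pabpc1 on array design 1 alone, 5 genes on array design 2 alone and 14 on neither. A difference between the designs was not tested, since they hold different probes and were fitted separately.

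The values of the members depended on the dye orientation. With treated embryos in channel 1 alone, Eef1a1 had −0.046 on array design 1 and −0.056 on array design 2, and with treated embryos in channel 2 alone it had 0.74 and 0.70. Pabpc1 on array design 1 went the same way (−0.10 and 0.84). Eef2 did the opposite, with 0.68 in channel 1 and −0.025 in channel 2. For these genes the ratio was thus near 0 in a single orientation. Their dye part, the mean of a slide pair before turning, was −0.39 and −0.38 for Eef1a1 on designs 1 and 2. It was −0.47 for Pabpc1 on array design 1 and 0.35 for Eef2. An equal ratio in both orientations with this dye part would give the same values, and the part of the dye in them was not tested. Eef1b2 had positive means in both orientations, at 0.17 and 0.44 on array design 1 and 0.22 and 0.60 on array design 2. So did Eif1b, at 0.35 and 0.35. Replicates spread widely within an orientation. In channel 1 and channel 2, the SD of Eef1b2 was 0.58 and 0.30 on array design 1. It was 0.64 and 0.66 on array design 2. That of Eef1a1 was 0.77 and 0.47 on array design 1 and 0.63 and 0.68 on array design 2. A difference between these genes was not tested. The 2 orientations had opposite signs in 51 of 82 member probes (62.2%) and in 72.7% of all probes on array design 1, and in 39 of 78 (50%) and 65.8% on array design 2.

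**Figure D4:**
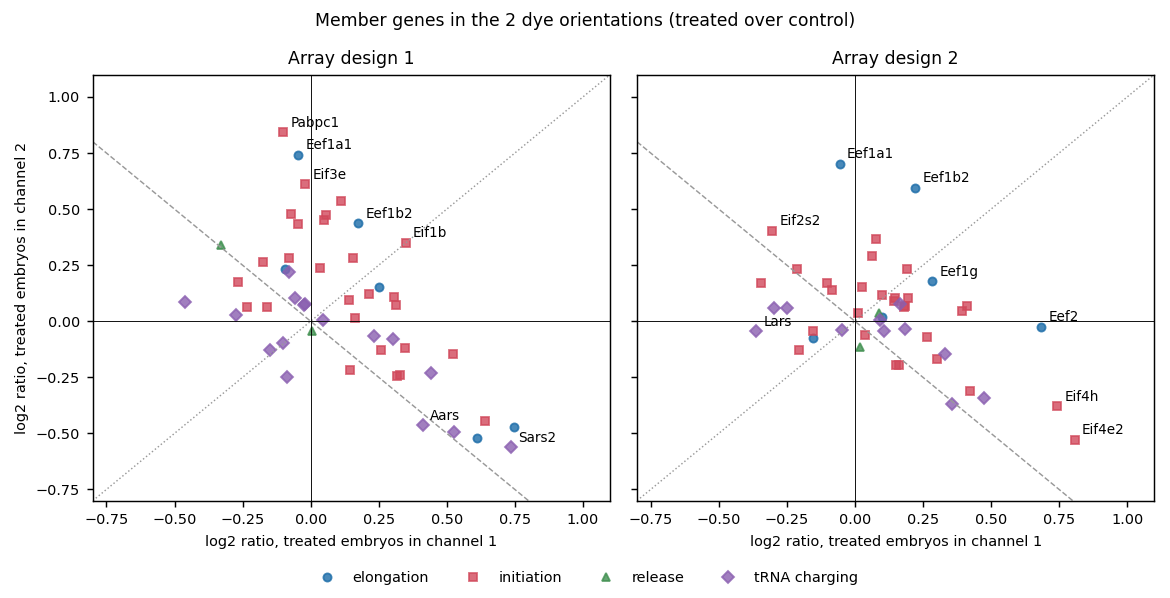
Each member gene by its log2 ratio of treated over control embryos on slides with treated embryos in channel 1 (x axis) and in channel 2 (y axis), coloured by role. A gene on the dotted line has the same ratio in both orientations, and one on the dashed line has ratios that cancel. Eef1a1 on both designs and Pabpc1 on array design 1 lie near 0 in channel 1 and at 0.70 to 0.84 in channel 2. Pabpc1 on array design 2 lies at −0.35 in channel 1 and 0.17 in channel 2. Eef2 lies at 0.68 in channel 1 and near 0 in channel 2.

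The ratios also followed the dye bias of the spots. A smooth trend on 3 principal components of the dye part (the mean of a slide pair before turning) took up 37.9% to 70.9% of a replicate's variance on array design 1 and 33.3% to 63.4% on array design 2. With this trend removed, no member was higher on either design (4 and 2 at an unadjusted p under 0.05) while 0.977% and 3.15% of all probes were, and no member kept its call. The median of the elongation probes became 0.013 and −0.0022, and that of the initiation probes −0.030 and −0.038. Eef1a1 had −0.00021 ± 0.026 and −0.016 ± 0.021 (SD, n = 5), and Eef2 0.040 ± 0.072. The called probe of Eif4enif1 had 0.85 ± 1.02 (limma adjusted p = 0.234). Among the genes called as gene means, the largest positive values left were those of Eif2b2 (0.22 ± 0.23), Eif1b (0.20 ± 0.10, limma adjusted p = 0.0552) and Eef1b2 on array design 2 (0.13 ± 0.037, limma adjusted p = 0.0509), none of which passed.

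Instead, 3 members were lower on array design 1 (0.56% of all probes) and 6 on array design 2 (1.88%) with the trend removed. Those of array design 1 were Gspt1 (−0.27 ± 0.087), 1 of 3 Eif2s2 probes (−0.22 ± 0.10) and Aars (−0.20 ± 0.084). Those of array design 2 were 1 of 3 Eif4e probes (−0.30 ± 0.077), Eif2s2 (−0.23 ± 0.12), Tars (−0.21 ± 0.063), Etf1 (−0.19 ± 0.079), 1 of 3 Eif4g2 probes (−0.18 ± 0.079) and 1 of 2 Eif3a probes (−0.13 ± 0.039). Eif2s2 was thus lower on a probe of each design. Treatment and dye parts come from the same arrays, so how much of a true response the trend takes with it was not tested.

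Centring also set the direction. Without it, array design 1 had 82.5% of all probes lower and 0.781% higher, and array design 2 had 87.3% lower and 0.276% higher. Of the members 47 were then lower and 1 higher on array design 1, and 53 lower and none higher on array design 2. Eef1a1 had 0.036 and −0.11, Eef1b2 −0.0074 and −0.021, Eef2 −0.10 and Lars −0.63. The uncentred elongation median was −0.0068 and −0.12 on designs 1 and 2, against −0.32 and −0.41 for all probes. Centring shifts all probes of an array alike, so it moves the sign of a ratio and not its distance from the other probes.

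**Figure D5:**
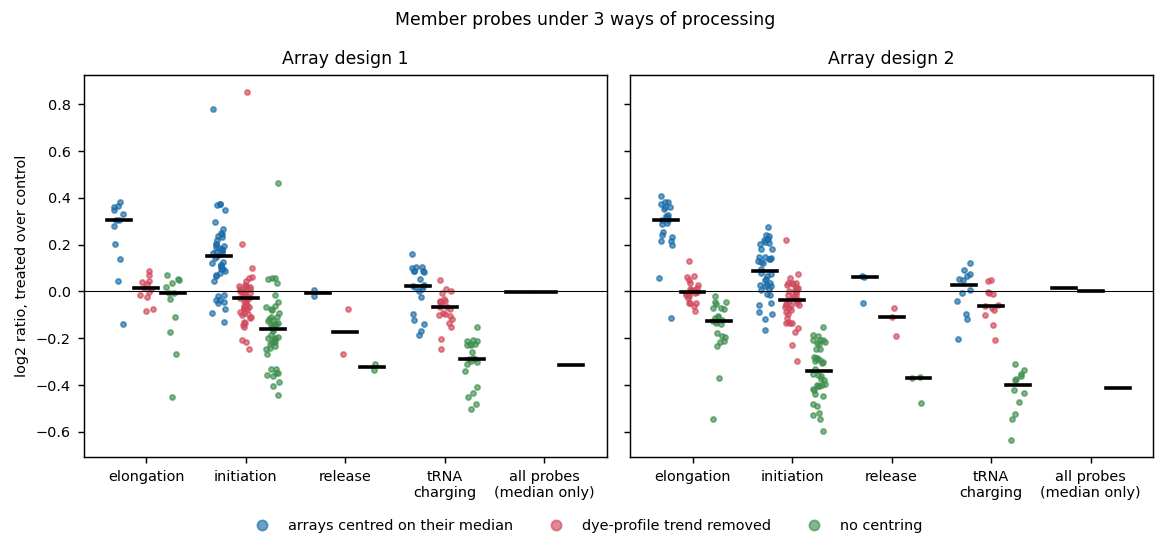
Member probes by role (x axis) on each design: mean log2 ratio of treated over control embryos (y axis) with arrays centred on their median, with the dye-profile trend removed and without centring. Points are probes and black bars are medians, with the medians of all probes at the right. The elongation median of 0.31 and 0.30 falls to near 0 with the trend removed and to −0.0068 and −0.12 without centring, where the median of all probes is −0.32 and −0.41.

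The slides belong to numbered series 2000 and 3000. Eef1a1 had 0.23 and 0.43 in the series 2000 and 3000 on array design 1, and 0.33 and 0.32 on array design 2. Eef2 had 0.34 and 0.31, Pabpc1 on array design 1 0.27 and 0.44, and Eif2b2 0.40 and 0.0041. Eef1a1, Eef2 and Pabpc1 were positive in both series, while Eif2b2 was near 0 in series 3000.

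Markers of other cell types were measured for few genes. The embryonic globins were higher on array design 2, with 5 of 7 erythroid probes called. These were Hbb-y on 4 probes at 0.58 to 0.63 and Hba-x at 0.58 ± 0.23. With the trend removed, 3 of the 4 Hbb-y probes passed (0.33 to 0.35), but Hba-x did not (0.23, limma adjusted p = 0.105). Slc4a1 (0.11 ± 0.12) and Alas2 (−0.0018 ± 0.12) were not called. Gata1, the erythroid marker of array design 1, had −0.096 ± 0.10. None of 4 yolk sac probes passed there, and the placental Prl8a2 was lower (−0.23 ± 0.15). Of the 2 neural genes there, Tubb3 was higher (0.28 ± 0.25) and Nes was not called (0.051 ± 0.068). Neither Prl8a2 (−0.034) nor Tubb3 (0.067) passed with the trend removed. Of 2 Dcn probes on array design 2, 1 was lower (−0.18 ± 0.074), and it lost its call with the trend removed (−0.071). Mesoderm markers were not analysed here. The part of a changed cell makeup in the values of the translation factors was not tested.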

How the data were processed

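Total RNA of treated and control embryos was compared on 40 2-colour arrays of 2 designs. As deposited by the authors, the values are log2 ratios between the channels, with the base inferred here from the tail of one readout (mean excess below −3 of 1.46 ± 0.079, SE, against 1.44 for base 2), and every fold assumes it. The sources used here give neither the scanner, background correction, normalization and numerator of the ratio nor what the B mark of a second readout means. Probes were named through the platform annotation. All 160 members matched the GRCm38.p6 gene table.

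Each array was centred on its median and turned to treated over control, readouts of a slide and then both dye orientations were averaged, and probes with the same accession were averaged. One readout with over 5% missing values was left out, a choice made knowing that the probe calls on array design 1 depend on it. For each design, limma 3.58.1 (R 4.3.3; lmFit and eBayes, two-sided) asked whether the mean of the 5 replicate values differed from 0, with Benjamini-Hochberg adjustment over all probes and a threshold of 0.05. The dye-profile trend was fitted with mgcv 1.9.3 (bases of 40 and 8). The fits were run on simulated data with independent noise in each probe, and a trend was added for the trend removal only. For the main fit those data lacked the dye-related trend, so they cannot show how reliable its calls are. Named with every replicate were, in each role and design, up to 8 called probes of one sign with the largest ratios, genes on both designs, genes whose probes disagree in sign and 11 fixed genes, as means over a gene's probes where it has several. The members, lists, tests and rule for named genes were chosen with earlier results of these data known. The alternatives tried are given in the closing section.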

Additional observations from a re-analysis of the deposited data

Results flagged for a closer look

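Of 51 member genes on array design 1 and 47 on array design 2, Yars on array design 1 had 1 replicate far from the others. Replicate 4 stood at 0.20, and the other 4 replicates lay between −0.049 and −0.0087. By chance about 1 gene in 20 would show such a gap. Yars encodes the cytosolic tyrosyl-tRNA synthetase and was not called.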

How the results depend on the processing

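On array design 1 the 19 members called higher became 0 with all readouts kept, 0 with B readouts alone, 0 with the dye-profile trend removed and 0 within slide series 2000, where 5 were left within slide series 3000, 1 without centring, 10 with treated embryos in channel 1 alone, 11 with single arrays and the replicate block, and 10 as genes in place of probes. The 1 called lower became 0 with all readouts kept, scaled arrays, either kind of readout alone, a term for slide series, either series alone and the replicate block, and 47 without centring, 2 and 6 with treated embryos in channel 1 or channel 2 alone and 3 with the trend removed. On array design 2 the 32 called higher became 0 without centring, 7 and 0 with channel 1 or channel 2 alone, 0 with the trend removed and 10 as genes. The 2 called lower became 53 without centring, 1 with scaled arrays or plain readouts, 0 with either orientation alone, 0 within series 3000 and 6 with the trend removed. Leaving out 1 replicate gave 0 to 29 higher and 0 lower on array design 1, and 27 to 36 higher and 0 to 2 lower on array design 2. The replicate block gave 28 higher and 2 lower members on array design 2.

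Called gene means that changed sign did so without centring, in one orientation or with the trend removed. Without centring these were, on array design 1, Eef1b2 (−0.0074), Eif2a (−0.12), Eif3e (−0.017), Eif3i (−0.095), Eif3j1 (−0.12), Eif3k (−0.047) and Eif3l (−0.063), and on array design 2 Eef1a1 (−0.11), Eef1b2 (−0.021), Eef1g (−0.20), Eef2 (−0.10), Eif2b2 (−0.19), Eif3h (−0.21), Eif4a2 (−0.21), Eif4g2 (−0.22), Eif4h (−0.25) and Eif5b (−0.25). With channel 1 alone they were Eef1a1 (−0.046 and −0.056 on designs 1 and 2), Eif3e (−0.019) and Pabpc1 (−0.10), and with channel 2 alone Ears2 (0.084), Eif2a (−0.14), Eef2 (−0.025) and Eif4h (−0.38). With the trend removed they were Eef1a1 (−0.00021 and −0.016 on designs 1 and 2), Eif3i (−0.030) and Eif3l (−0.0075) on array design 1, and Eif3h (−0.012), Eif4g2 (−0.048) and Eif4h (−0.013) on array design 2. The cause was not tested. Of the other values of named genes under an alternative, 905 kept their side of the threshold (sign changes of uncalled genes included), 160 lost a call, 20 gained one in the same direction and 29 were called in the opposite direction after no call.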
